A study of Mus musculus with 26 samples.

Results

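Rab proteins are small GTPases that mark the membranes of the secretory and endocytic pathways. In the GTP-bound form each recruits its own effectors, such as motors, tethers and docking proteins. Exchange factors load the GTP, GTPase-activating proteins speed its hydrolysis, and a lipid tail added by a shared prenylation machinery holds the protein on its membrane. In pancreatic islets, the hormone-secreting cell clusters of the pancreas, the Rab3 proteins and Rab27a are known for their place on insulin granules, where they take part in docking and release. The Rab genes described here are the rows whose symbol is Rab, a number and at most one letter and one further digit. There were 53 of them among the 13641 genes listed. By the best known site of action of their proteins, 7 were secretory (Rab3a, Rab3b, Rab3c, Rab3d, Rab27a, Rab27b and Rab37), 14 belonged to the endoplasmic reticulum (ER) and Golgi, 15 to early and recycling endosomes, 7 to late endosomes, lysosomes and related organelles, 6 to post-Golgi traffic, cilia and cell polarity, and 4 were less studied.

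Total RNA of whole islets, depleted of ribosomal RNA, was sequenced from C57BL/6J mice: 6 libraries from adults at 2.5 months, 9 from small islets and 11 from large islets of neonates at postnatal day 5. Each sample was a pool of hand-picked islets; no allele or treatment is named, and the labels state neither sex nor the number of mice per pool. The names of the adult libraries of batch 2 begin with M or F, letters that no label explains. The labels give 3 batches without saying what a batch is: batch 1 held 4 small and 4 large neonatal libraries and no adult one, batch 2 held 4 adult, 3 small and 4 large, and batch 3 held 2 adult, 2 small and 3 large. Nothing says that libraries of one group came from separate animals, so p-values measure the spread between these libraries only.

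Values are FPKM, fragments scaled by gene length and library total, so levels can be set side by side between genes. The libraries held, in units of 1000000 fragments, 17.3 to 27.4 in adult, 15.5 to 29.5 in neonatal small and 21.0 to 32.0 in neonatal large islets. Beta cell markers (10 of 10 listed) summed to 128852 to 180996 FPKM in adult, 90198 to 139160 in neonatal small and 101311 to 143076 in neonatal large islets, so the tissue label held in every library. Other cell types differed with age: endothelial markers summed to 156 to 197 FPKM in adult, 417 to 643 in neonatal small and 429 to 683 in neonatal large islets, and 10 of 10 were called lower in adults. Mesenchymal markers summed to 75.9 to 140 FPKM in adult, 202 to 639 in neonatal small and 309 to 1280 in neonatal large islets, with 9 of 10 called lower in adults. Markers of dividing cells were lower in adults too (8 of 8), at sums of 4.0 to 9.8 in adult, 106 to 161 in neonatal small and 126 to 185 FPKM in neonatal large islets. All listed endothelial, mesenchymal and dividing-cell markers were detected. The 3 erythroid markers tested were lower in adults, at sums of 6.87 to 82.0 FPKM in adult, 230 to 484 in neonatal small and 283 to 883 in neonatal large islets. So were all 7 duct markers tested, at 138 to 180, 206 to 292 and 210 to 535 FPKM in the same order. Of 8 alpha cell markers 3 were higher and 5 lower in adults, and their sums were 16646 to 33086, 5611 to 19058 and 11268 to 27115 FPKM. Acinar (enzyme-secreting) cell markers, of which 9 of 12 listed were found, varied widely between libraries. They summed to 3.89 to 4229 FPKM in adult, 10.1 to 649 in neonatal small and 17.1 to 3797 in neonatal large islets. The part of acinar RNA in Rab levels was not tested. In bulk RNA, fewer cells of a type and less RNA per cell cannot be told apart.

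Rab transcripts covered a wide range of levels. Of the 53 genes, 33 averaged over 10 FPKM across all libraries, 17 lay between 1 and 10 FPKM and 3 lay below 1 FPKM. The highest was Rab7, which directs traffic to late endosomes and lysosomes, at 126 ± 12 FPKM in adult, 104 ± 10 in neonatal small and 108 ± 3.9 in neonatal large islets (SD, n = 6, 9 and 11). In the same order of groups, Rab2a (ER to Golgi) averaged 117 ± 5.2, 103 ± 23 and 111 ± 16 FPKM. Rab1a (ER to Golgi) averaged 116 ± 11, 89.8 ± 19 and 95.4 ± 15 FPKM, and these 3 genes overlap in each group. Next were Rab27a at 96.5 ± 5.7, 79.9 ± 10 and 79.6 ± 7.8 FPKM, and Rab1b at 42.9 ± 3.7, 64.9 ± 9.0 and 64.4 ± 6.1 FPKM. The 53 genes together summed to 1329 to 1460 FPKM in adult, 1099 to 1482 in neonatal small and 1278 to 1497 in neonatal large islets, ranges that overlap. Rab17, an epithelial endosome Rab, was the only gene under the filter used for testing (at least 1 FPKM in at least 6 libraries): it ran from 0.271 to 0.809 FPKM with a median of 0.365 in adult, from 0.449 to 1.25 with a median of 0.623 in neonatal small and from 0.483 to 2.93 with a median of 0.962 in neonatal large islets, on 14 to 131 fragments.

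The first comparison asks how Rab transcripts differ between adult and neonatal islets. Of the 52 genes tested, 10 were higher and 22 lower in adults at an adjusted p under 0.05 (limma on log2(FPKM + 1), group and batch in the model, Benjamini-Hochberg over all 13402 genes kept), against 21.1% of all genes tested called higher and 46.8% called lower. The largest rise was that of Rab39b and the largest falls were those of Rab15, Rab13 and Rab31; changes ran from -1.39 to 0.91 on the log2(FPKM + 1) scale, which understates the change of low genes, and only Rab15 and Rab13 passed 1 in size. The median change of the 52 genes was -0.13, and that of all genes tested was -0.16. When libraries were rescaled by the median of ratios, the median of all genes was 0.02, and 21 Rab genes were called higher and 12 lower (all genes: 34.8% and 33.4%). With quantile normalization it was 0.06, and 22 Rab genes were higher and 12 lower (all genes: 37.5% and 30.0%). Relative to the median of all genes, the Rab median was 0.02 on the deposited scale, 0.04 with the median of ratios and 0.02 with quantile normalization.

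Because of this shift, the genes called in the same direction under all 3 scalings are given first. There were 10 higher in adults (Rab1a, Rab6a, Rab7, Rab18, Rab20, Rab22a, Rab24, Rab27a, Rab28 and Rab39b), against 21.0% of all genes tested, and 8 lower (Rab1b, Rab5c, Rab11b, Rab13, Rab15, Rab31, Rab34 and Rab43), against 27.4%. A further 3 calls as deposited changed sign under a rescaling, those of Rab8a, Rab32 and Rab40b. Of the 32 genes called as deposited, 29 kept their direction in batch 2 alone and in batch 3 alone. The same share over all genes called was not computed.

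**Figure D1:**
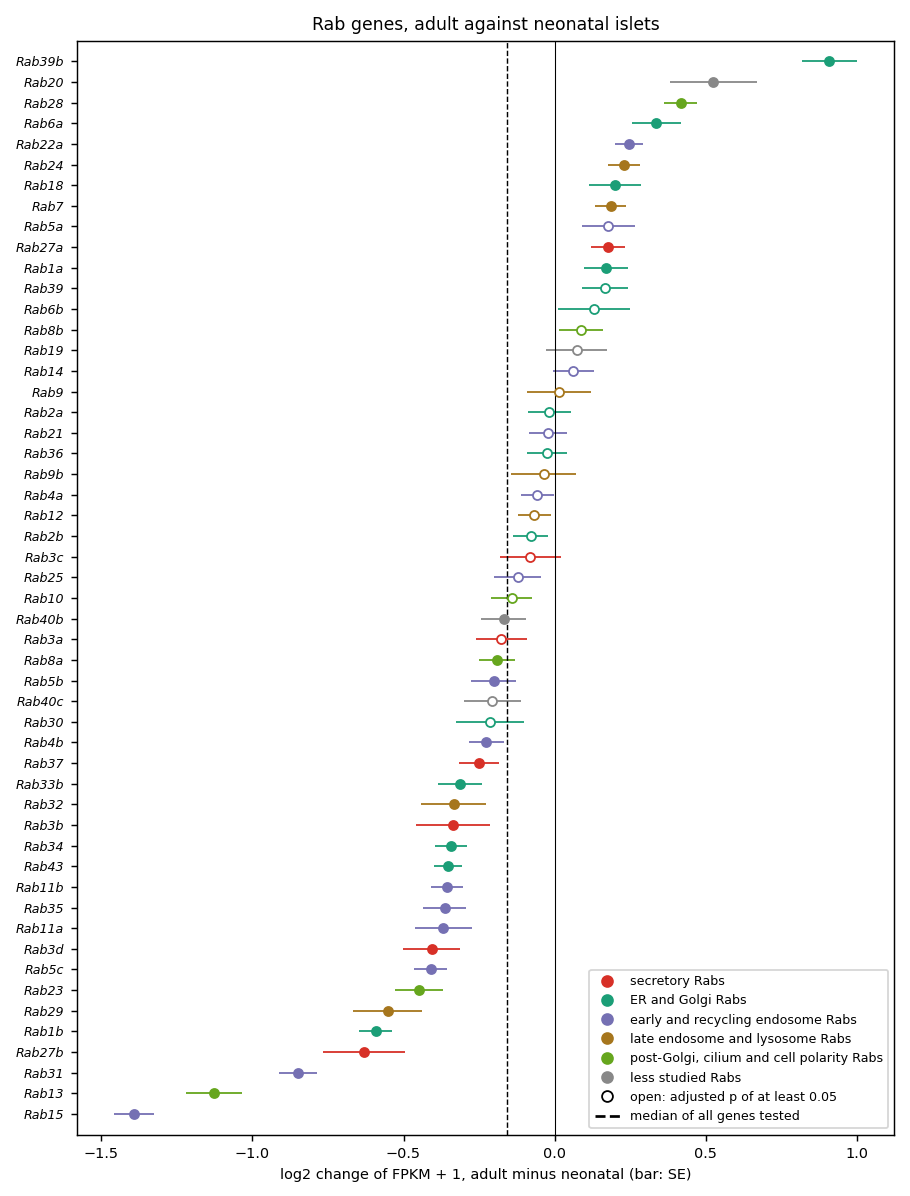
Log2 change of FPKM + 1 in adult minus neonatal islets for the 52 Rab genes tested, one row per gene, with the standard error as a bar and colour for the site of action; filled points passed the test and the dashed line is the median of all genes tested. Rab39b stands apart at the top (0.91), and Rab15 (-1.39), Rab13 (-1.13) and Rab31 (-0.85) at the bottom.

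Rab39b, a Golgi-associated Rab best known from neurons and from inherited intellectual disability in humans, lies on the X chromosome (GRCm38, chrX:75572046-75578231, minus strand). It ran from 10.8 to 20.1 FPKM in adult islets with a median of 16.6, from 3.95 to 9.47 with a median of 5.77 in neonatal small and from 5.07 to 11.4 with a median of 6.05 in neonatal large islets. The 4 adult libraries of batch 2 (16.3 to 20.1 FPKM) stood above every neonatal library, while those of batch 3 (10.8 and 11.0 FPKM) overlapped with the highest large ones. The change was 0.91 ± 0.09 (log2, SE; adjusted p = 2.23e-09), and 0.91 and 0.87 within batches 2 and 3. An annotated gene on the opposite strand, Gm15063, covers 18.6% of its exonic bases, and the strand setting of the counting is not given in the sources used here. Its paralog Rab39 was low, at 1.04 ± 0.16 FPKM in adult, 0.673 ± 0.21 in neonatal small and 0.894 ± 0.16 in neonatal large islets, and did not pass (0.17 ± 0.08, adjusted p = 0.0541).

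Rab28 (a ciliary and photoreceptor Rab) and Rab22a (early endosomes) were the 2 genes of which every adult library lay above every neonatal one, against 5.21% of all genes tested. Rab28 ran from 26.4 to 32.0 FPKM in adult (median 30.7), from 15.0 to 24.4 in neonatal small (median 20.2) and from 18.6 to 25.1 in neonatal large islets (median 20.6), a rise of 0.42 ± 0.05 (adjusted p = 1.79e-07). Rab22a was tightly grouped in adults, from 32.8 to 36.8 FPKM with a median of 36.2, against 25.7 to 32.5 with a median of 28.6 in neonatal small and 23.9 to 32.7 with a median of 28.8 in neonatal large islets (0.25 ± 0.05, adjusted p = 5.49e-05). The margin for Rab22a was small, since its lowest adult library, at 32.8 FPKM, stood just above its highest large one, at 32.7 FPKM. Within batch 3 alone the change of Rab22a was 0.31 and did not pass (adjusted p = 0.0658).

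The other genes called higher under all 3 scalings changed by 0.17 to 0.53. The top of this range was Rab20, whose change turned in sign between batches (batch 3 minus batch 2: -1.08). In batch 3 Rab20 averaged 6.78 FPKM in adult, 7.37 in neonatal small and 7.88 in neonatal large islets. Rab6a, which acts in retrograde traffic to and within the Golgi, averaged 59.0 ± 11 FPKM in adult, 41.5 ± 8.5 in neonatal small and 43.4 ± 6.6 in neonatal large islets (0.34 ± 0.08, adjusted p = 6.59e-04). Rab24, linked to autophagy, averaged 20.5 ± 1.0, 18.3 ± 1.6 and 17.7 ± 1.6 FPKM in the same order of groups (0.23 ± 0.05, adjusted p = 3.78e-04). Rab18 (ER and lipid droplets) averaged 29.9 ± 1.7, 21.1 ± 6.1 and 24.5 ± 4.4 FPKM, with a change of 0.20 ± 0.09 that was close to the threshold (adjusted p = 0.0427); it was lost when adult replicate 1, 5 or 6 or large replicate 14, 15, 16, 19 or 20 was left out, with an adjusted p of up to 0.136 (adult replicate 5). Within batch 2 the change of Rab18 was 0.09 (adjusted p = 0.223) and within batch 3 it was 0.35. Rab7 rose by 0.19 ± 0.05 (adjusted p = 2.33e-03), with 0.26 within batch 2 and 0.03 within batch 3 (adjusted p = 0.825), and Rab1a by 0.17 ± 0.07 (adjusted p = 0.0419). The call of Rab1a was lost when adult replicate 1, 2, 5 or 6, small replicate 9 or large replicate 15, 16, 19 or 20 was left out, with an adjusted p of up to 0.0979 (adult replicate 5). Within batch 3 alone Rab6a (0.19, adjusted p = 0.194) and Rab24 (0.21, adjusted p = 0.193) did not pass. Rab1a passed in neither batch alone, with 0.15 in batch 2 (adjusted p = 0.0619) and 0.18 in batch 3 (adjusted p = 0.268). Overlapping genes on the opposite strand cover 62.4% of the exonic bases of Rab24 (Prelid1) and 19.0% of those of Rab6a (Mrpl48). For Rab20 the share is 25.6% (E230013L22Rik). Reads of these neighbours may be counted in.

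Among the falls, Rab15, a Rab of early and recycling endosomes studied mainly in neurons (chr12:76797960-76822908, minus strand), was the largest. It ran from 0.598 to 1.02 FPKM in adult islets with a median of 0.718, from 2.65 to 4.05 with a median of 3.28 in neonatal small and from 3.07 to 4.85 with a median of 4.05 in neonatal large islets. No adult library came near the neonatal range, and the change was -1.39 ± 0.07 (adjusted p = 7.32e-16), with -1.39 and -1.41 within batches 2 and 3. Rab13, which carries cargo to tight junctions, ran from 1.95 to 2.98 FPKM in adult (median 2.05), from 4.57 to 7.68 in neonatal small (median 5.79) and from 4.13 to 8.43 in neonatal large islets (median 6.59), again without overlap (-1.13 ± 0.09, adjusted p = 3.65e-11). Rab31, which acts between the trans-Golgi network and endosomes, ran from 3.33 to 5.16 FPKM in adult (median 3.85), from 5.71 to 7.72 in neonatal small (median 6.49) and from 6.85 to 11.4 in neonatal large islets (median 8.28), without overlap (-0.85 ± 0.06, adjusted p = 6.12e-12).

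In all, 5 Rab genes, these 3 with Rab1b and Rab43, lay below every neonatal library in every adult one, against 20.2% of all genes tested. Rab43 (ER to Golgi) averaged 7.81 ± 0.64 FPKM in adult, 11.3 ± 1.3 in neonatal small and 10.2 ± 0.72 in neonatal large islets. However, 75.4% of its exonic bases lie in another annotated gene on the same strand, Gm45140, so its own value is uncertain. Rab5c, an early endosome Rab, averaged 36.7 ± 1.5, 45 ± 6.7 and 48.6 ± 5.7 FPKM (-0.41 ± 0.05, adjusted p = 3.16e-07). Rab23, which dampens Hedgehog signalling in mouse embryos, averaged 3.32 ± 0.89, 4.26 ± 0.68 and 4.72 ± 0.41 FPKM (-0.45 ± 0.08, adjusted p = 1.72e-05). Rab29, found at the Golgi and on stressed lysosomes, averaged 0.932 ± 0.27, 1.41 ± 0.38 and 2.32 ± 0.87 FPKM (-0.55 ± 0.12, adjusted p = 1.53e-04). Neither gene passed after quantile normalization. The other genes called lower as deposited (Rab4b, Rab5b, Rab8a, Rab11a, Rab11b, Rab32, Rab33b, Rab34, Rab35 and Rab40b, with Rab43 and the secretory ones aside) had changes from -0.37 (Rab11a) to -0.17 (Rab40b), and the call of Rab5b was lost without adult replicate 2 or 3 (adjusted p of 0.0533 and 0.0506). The 20 genes that did not pass were Rab2a, Rab2b, Rab3a, Rab3c, Rab4a, Rab5a, Rab6b, Rab8b, Rab9, Rab9b, Rab10, Rab12, Rab14, Rab19, Rab21, Rab25, Rab30, Rab36, Rab39 and Rab40c. Their changes lay between -0.21 (Rab30) and 0.18 (Rab5a). The endothelial, mesenchymal, dividing-cell, erythroid and duct markers given above moved the same way as these falls, and their part in them was not tested. Alpha cell markers were mixed, with 5 of 8 lower and 3 higher in adults (all genes: 46.8% and 21.1%). The medians of their sums were 24841 FPKM in adult, 15472 in neonatal small and 16892 in neonatal large islets. The part of alpha cell RNA was not tested either. Beta cell marker sums include the hormone genes Ins1, Ins2 and Iapp, and calls of single beta cell markers are not given here. These sums were higher in adults, with overlapping ranges. Their medians were 165350 FPKM in adult, 113815 in neonatal small and 116678 in neonatal large islets. This is the direction of the Rab rises, and the part of beta cell RNA in those rises was not tested.

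The secretory Rabs were set against the rest of the family. Of the 7 secretory genes, 1 was higher in adults (Rab27a), 4 were lower (Rab3b, Rab3d, Rab27b and Rab37) and 2 did not pass (Rab3a and Rab3c). Of the 45 other genes tested, 9 were higher and 18 lower. Over all genes tested, 21.1% were called higher and 46.8% lower, so with 7 genes these counts do not set the secretory class apart. The median change was -0.25 in the secretory genes and -0.08 in the others, or -0.10 and 0.08 relative to the median of all genes. With the median of ratios 1 secretory gene was higher (Rab27a) and 1 lower (Rab27b), against 34.8% and 33.4% of all genes. With quantile normalization 2 were higher (Rab3c and Rab27a) and 1 lower (Rab3d), against 37.5% and 30% of all genes. Relative to all genes, the secretory median was -0.16 within batch 2 and 0.15 within batch 3, so its direction turned between batches.

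Rab27a, which anchors granules at the cell cortex and was the most abundant secretory Rab, ran from 86.8 to 104 FPKM in adult islets with a median of 97.0, from 66.6 to 90.5 with a median of 83.6 in neonatal small and from 68.3 to 91.4 with a median of 80.7 in neonatal large islets. The adult range overlapped with the neonatal ones through adult replicate 6 of batch 3, at 86.8 FPKM, and the change was 0.18 ± 0.06 (adjusted p = 6.99e-03). The change was 0.18 within batch 2 and 0.15 within batch 3, where it did not pass (adjusted p = 0.319). In batch 3 Rab27a had 86.8 and 94.4 FPKM in adult, 86.0 and 90.4 in neonatal small and 69.8 to 80.7 in neonatal large islets. Rab27b, its paralog, was rare, on 59 to 547 fragments per library. It ran from 0.291 to 0.706 FPKM in adult (median 0.417), from 0.384 to 2.02 in neonatal small (median 0.732) and from 0.911 to 3.16 in neonatal large islets (median 1.75), so that adult libraries lay below all large ones and overlapped with the small ones (-0.63 ± 0.14, adjusted p = 2.09e-04). After quantile normalization that change was -0.16 (adjusted p = 0.238).

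Rab3d had the highest mean level of the Rab3 genes. It ran from 34.3 to 54.6 FPKM in adult (median 48.1), from 45.7 to 75.4 in neonatal small (median 55.9) and from 45.3 to 66.5 in neonatal large islets (median 56.4), with overlapping ranges. In batch 2 it had 53.1 and 54.6 FPKM in adult libraries named with M, and 34.3 and 37.2 in those named with F. The change was -0.41 ± 0.09 (adjusted p = 4.58e-04), and with the median of ratios it was -0.21 (adjusted p = 0.0649). Rab3a, the neuronal and endocrine form, ran from 33.0 to 54.5 FPKM in adult (median 37.9), from 34.2 to 53.3 in neonatal small (median 43.9) and from 38.1 to 50.2 in neonatal large islets (median 44.1). Its change of -0.18 did not pass (unadjusted 95% interval -0.35 to -0.0038, adjusted p = 0.0651). Without adult replicate 5 it was -0.27 with an adjusted p of 0.0055. The 2 adult libraries of batch 3 (54.5 and 44.8 FPKM) were above the 4 of batch 2 (33.0 to 39.1 FPKM). Rab37, known from secretory granules, averaged 43.9 ± 8.4 FPKM in adult, 49.4 ± 4.9 in neonatal small and 50.0 ± 5.2 in neonatal large islets (-0.25 ± 0.07, adjusted p = 1.67e-03) and was -0.05 with the median of ratios (adjusted p = 0.468). Rab3b averaged 13.3 ± 1.2, 16.1 ± 5.5 and 16.1 ± 2.8 FPKM (-0.34 ± 0.12, adjusted p = 0.0175); without adult replicate 6 its adjusted p was 0.0772. Rab3c averaged 2.50 ± 0.64, 2.07 ± 0.57 and 2.99 ± 0.37 FPKM (-0.08, unadjusted 95% interval -0.29 to 0.13, adjusted p = 0.499), a change that was 0.27 after quantile normalization (adjusted p = 0.0116).

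**Figure D2:**
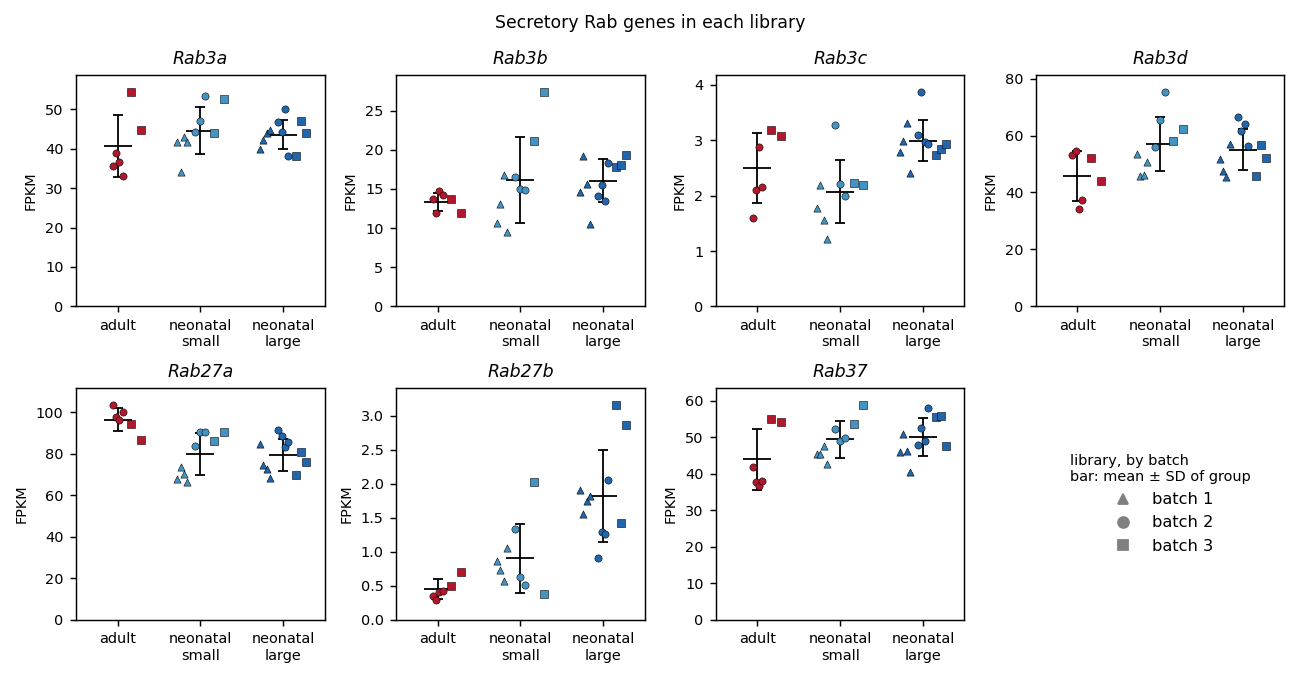
FPKM of the 7 secretory Rab genes in each library, by group from left (adult, neonatal small, neonatal large), with a symbol for each batch and bars for the mean and SD. Rab27a is higher in adults (86.8 to 104 FPKM), Rab27b lies below 1 FPKM in every adult library, and Rab3a, Rab3c and Rab37 of adults divide by batch.

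Summed over the class, secretory Rabs took 15.9% to 19.9% of the FPKM of all 53 genes in adult, 17.4% to 20.0% in neonatal small and 16.1% to 19.3% in neonatal large islets. Within batch 2 the adult shares (15.9% to 17.1%) lay below those of neonatal small (17.4% to 19.4%) and large islets (17.9% to 18.5%). Within batch 3 they did not: the shares were 18.5% and 19.9% in adult, 18.6% and 20.0% in neonatal small and 16.1% to 19.3% in neonatal large islets. ER and Golgi Rabs took 31.5% ± 0.8 in adult, 29.9% ± 1.2 in neonatal small and 30.1% ± 1.3 in neonatal large islets. Early and recycling endosome Rabs took 27.1% ± 0.4, 28.5% ± 0.7 and 28.8% ± 0.9 in the same order, and late endosome and lysosome Rabs 13.9% ± 0.7, 12.7% ± 0.7 and 12.8% ± 0.6.

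By class, against the 21.1% of all genes called higher and 46.8% called lower, 4 of 14 ER and Golgi genes were higher in adults and 4 lower, 1 and 8 of the 14 early and recycling endosome genes tested, 2 and 2 of 7 late endosome and lysosome genes, 1 and 3 of 6 post-Golgi, cilium and polarity genes, and 1 and 1 of 4 less studied genes. Median changes relative to all genes were 0.13, -0.06, 0.12, -0.01 and 0.11 in that order. With the median of ratios they were 0.15, -0.03, 0.11, 0.02 and 0.09, and the post-Golgi class turned in sign. Within batches 2 and 3 the early and recycling endosome class had 0.05 and -0.14, a change of sign. The less studied Rab20 rose by 0.53 ± 0.14 (adjusted p = 2.29e-03), with 0.90 within batch 2 and -0.16 within batch 3.

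The balance of several close paralogs differed with age. A ratio of 2 genes within a library is free of that library's scaling, so ratios were computed for the 19 pairs of listed genes that share a Rab number; these tests were chosen after the values had been seen. Age labels were permuted within batches 2 and 3 (6930 arrangements, two-sided exact test, smallest possible p 0.000144), and p-values were adjusted over the 19 pairs. Of these, 6 ratios differed with age, each in the same direction in both batches. The share among pairs of other genes was not counted. Of all genes tested, 21.1% were called higher and 46.8% lower in adults, so this count is not shown to be particular to paralogs. Pairs of Rab3 genes and of Rab5 genes share members, so the 19 tests are not independent. A ratio does not show which of the 2 genes changed.

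Rab1a and Rab1b, which share the ER-to-Golgi step, gave the clearest case, and neither gene has exonic overlap or a read-length match with another gene. Rab1a ran from 97.9 to 128 FPKM in adult (median 119), from 67.5 to 118 in neonatal small (median 88.2) and from 73.9 to 123 in neonatal large islets (median 92.5). Rab1b ran from 39.6 to 50.0 FPKM in adult (median 42.0), from 54.5 to 79.5 in neonatal small (median 63.1) and from 56.8 to 73.5 in neonatal large islets (median 64.0). Rab1b changed by -0.59 ± 0.05 (adjusted p = 3.79e-10), without overlap. Their ratio was 2.72 ± 0.40 in adult and 1.46 ± 0.35 in neonatal islets (SD, n = 6 and 20), with adult values from 2.12 to 3.00 and neonatal values from 1.07 to 2.11, so that no library overlapped. The difference was 0.77 on the log2 scale (exact p = 0.000144, the smallest the test can give; adjusted p = 0.0014), and 0.70 and 0.89 within batches 2 and 3.

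The upstream sequences of these paralogs and of Rab39b are shown because Rab1a and Rab1b moved in opposite directions and Rab39b rose most. Each line gives the 250 bases before the RefSeq gene start on the gene's strand (GRCm38.p6; Rab39b chrX:75578232-75578481, minus; Rab1a chr11:20201162-20201411, plus; Rab1b chr19:5106997-5107246, minus), and capitals mark a motif match.
Rab39b: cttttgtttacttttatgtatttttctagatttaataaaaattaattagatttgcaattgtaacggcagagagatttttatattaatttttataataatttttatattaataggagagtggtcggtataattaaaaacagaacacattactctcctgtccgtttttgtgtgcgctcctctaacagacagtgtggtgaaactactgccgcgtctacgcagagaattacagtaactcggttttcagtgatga
Rab1a: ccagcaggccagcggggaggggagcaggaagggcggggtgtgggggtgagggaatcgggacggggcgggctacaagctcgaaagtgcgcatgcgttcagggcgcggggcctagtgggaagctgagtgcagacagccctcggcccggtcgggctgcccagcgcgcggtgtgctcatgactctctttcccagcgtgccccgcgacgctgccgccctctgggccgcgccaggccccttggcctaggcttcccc
Rab1b: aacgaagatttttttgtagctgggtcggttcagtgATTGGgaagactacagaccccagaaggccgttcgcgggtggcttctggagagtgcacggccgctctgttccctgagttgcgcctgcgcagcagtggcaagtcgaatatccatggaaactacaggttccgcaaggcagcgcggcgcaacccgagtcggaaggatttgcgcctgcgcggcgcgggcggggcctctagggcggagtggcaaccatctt
The Rab39b window was poor in G and C, with 31.6% GC and 8 CpG pairs, against 72.4% and 23 for Rab1a and 60.8% and 23 for Rab1b. The median was 60.4% GC and 15.5 CpG pairs over 58 upstream windows of 46 Rab genes, and 52.4% and 6.0 over all 32851 windows of that length. Both strands were searched for the E-box CACGTG, for a further E-box, spelled CAGCTG, for the cyclic AMP response element TGACGTCA and for the CCAAT box. None of these contains another. The only match in these 3 windows was a CCAAT box of Rab1b, read as ATTGG on the printed strand with its first base at -215 from the start. The CCAAT box was found in 41.4% of Rab windows and 33.8% of all windows. The shares were 15.5% and 13.0% for CAGCTG, 8.6% and 6.0% for CACGTG, and 3.4% and 1.5% for TGACGTCA. A match describes the letters only.

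Rab5a and Rab5c, both early endosome Rabs, had a ratio of 1.51 ± 0.33 in adult and 0.949 ± 0.13 in neonatal islets, a log2 difference of 0.59 (exact p = 0.000144, adjusted p = 0.0014), with 0.72 and 0.40 within batches 2 and 3. The Rab27a to Rab27b ratio was 235 ± 75 in adult and 78.8 ± 54 in neonatal islets, a log2 difference of 1.65 (adjusted p = 0.0093), on the few fragments of Rab27b. The ratio of Rab39 to Rab39b was 0.073 ± 0.029 in adult and 0.127 ± 0.043 in neonatal islets (log2 difference -0.66, adjusted p = 0.0062). Smaller differences were those of Rab4a to Rab4b, at 0.605 ± 0.013 in adult and 0.522 ± 0.037 in neonatal islets (0.18, adjusted p = 0.0062), where Rab4b shares 65.0% of its exonic bases with Gm21983 on the same strand, and of Rab3a to Rab3d, at 0.902 ± 0.17 and 0.795 ± 0.077 (0.24, adjusted p = 0.0192). In batch 2 the adult Rab3a to Rab3d ratios were 0.674 and 0.715 in libraries named with M, and 1.07 and 0.888 in those named with F. The neonatal ratios of that batch ran from 0.679 to 0.793. All 6 pairs kept an unadjusted p under 0.05 when any single library of batches 2 and 3 was left out. The other 13 ratios did not pass, with adjusted p from 0.0521 (Rab5a to Rab5b) to 0.974 (Rab40b to Rab40c).

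**Figure D3:**
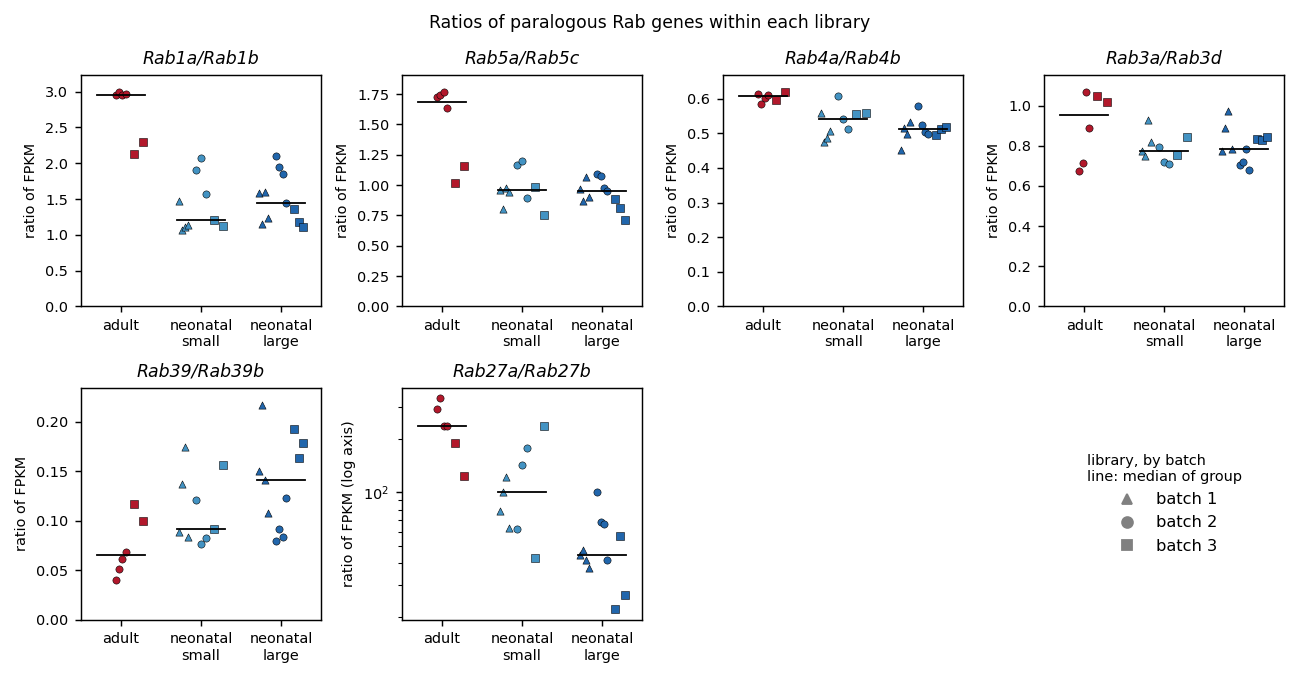
Ratio of FPKM of 2 paralogous Rab genes in each library, for the 6 pairs whose ratio differed with age, by group with a symbol for each batch and a line at the median; the Rab27a to Rab27b axis is logarithmic. For Rab1a to Rab1b all adult libraries (2.12 to 3.00) lie above all neonatal ones (1.07 to 2.11); the other pairs overlap.

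The age change of 20 Rab genes differed between batch 3 and batch 2, 12 with a higher and 8 with a lower change in batch 3, against 25.9% and 19.1% of all genes tested (interaction of age and batch in limma, batches 2 and 3 only). The largest by p was Rab40c, which carries a domain of ubiquitin ligases: its age change was 0.10 in batch 2 and -0.75 in batch 3, a difference of -0.86 ± 0.09 (adjusted p = 8.41e-07). Rab9b (late endosomes) had -0.36 and 0.52 (difference 0.87 ± 0.14, adjusted p = 1.01e-04), the less studied Rab19 had -0.21 and 0.57 (0.79 ± 0.13, adjusted p = 1.66e-04), and Rab35 (endosome recycling) had -0.17 and -0.71 (-0.53 ± 0.10, adjusted p = 3.29e-04). Rab23 had -0.68 and -0.06 (0.62 ± 0.10, adjusted p = 7.94e-05), and Rab5b (early endosomes) had -0.35 and 0.02 (0.38 ± 0.08, adjusted p = 8.09e-04). Among secretory genes, Rab3a, Rab3c and Rab37 had a higher and Rab3b a lower change in batch 3. Batch 3 holds 2 adult libraries, of 17.3 and 18.5 (units of 1000000 fragments), against 25.2 to 27.4 for the 4 of batch 2, so batch and depth cannot be told apart.

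**Figure D4:**
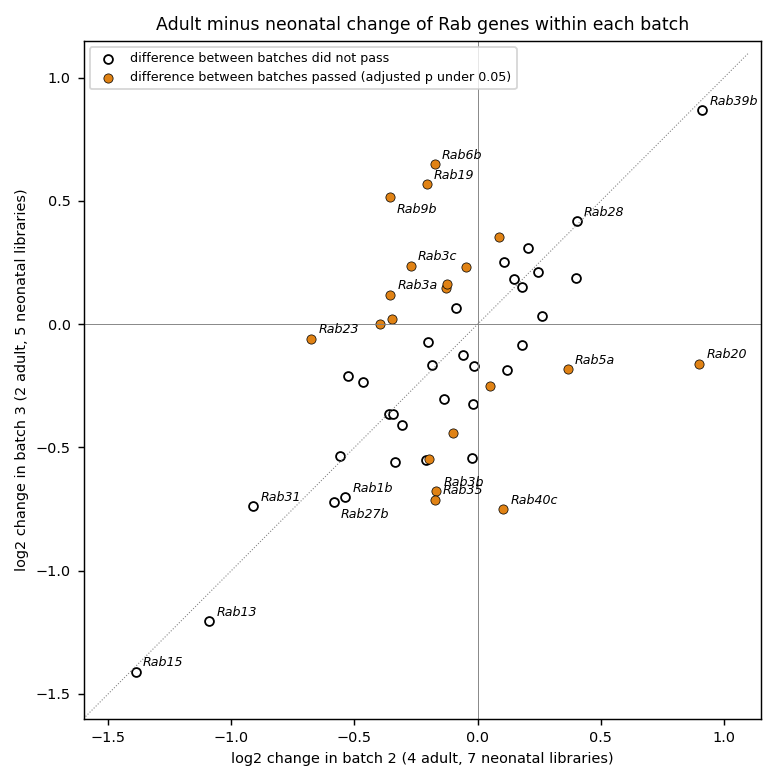
Adult minus neonatal change of log2(FPKM + 1) of each Rab gene in batch 2 (horizontal) and batch 3 (vertical), with the line of equal change; filled points are the 20 genes whose change differed between batches. Rab39b, Rab28, Rab15, Rab13 and Rab31 lie near the line, and Rab40c, Rab9b, Rab19 and Rab20 have opposite signs in the 2 batches.

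Set against each neonatal size alone, adult islets had 12 higher and 19 lower Rab genes relative to small islets (all genes: 19.9% and 43.1%) and 8 higher and 26 lower relative to large islets (all genes: 20.2% and 46.9%). Both use the same adult libraries. Rab15 was -1.29 against small and -1.49 against large islets, Rab31 -0.71 and -0.99, Rab27b -0.35 and -0.91, and Rab39b 0.97 and 0.85. Rab32, a Rab of lysosome-related organelles such as melanosomes, was -0.01 against small islets, where it did not pass, and -0.65 against large ones.

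Small and large neonatal islets themselves differed in 15 Rab genes: 2 were higher in small islets (Rab36 and Rab43) and 13 lower, against 4.96% and 12.7% of all genes tested. With any library left out the counts ran from 0 to 2 higher and from 8 (without small replicate 4) to 16 lower. Small and large libraries of the same number were not paired in this test, although some of them may be related. That choice is taken up in the closing section. Rab32 differed most, running from 0.404 to 1.19 FPKM in small islets (median 0.629) and from 1.02 to 3.26 in large islets (median 1.46), on 15 to 154 fragments per library across all groups. The ranges overlap slightly, and the change was -0.64 ± 0.10 (adjusted p = 3.54e-04). Rab6b, the neuronal form of Rab6, ran from 6.90 to 14.5 FPKM in small (median 8.65) and from 10.4 to 15.7 in large islets (median 13.5), a fall of 0.57 ± 0.11 (SE) with an adjusted p of 1.48e-03. Rab27b, with the values given above, had -0.57 ± 0.12 (adjusted p = 3.65e-03), Rab29 -0.42 ± 0.10 (adjusted p = 8.08e-03), Rab3c -0.38 ± 0.09 (adjusted p = 7.60e-03) and Rab30, a Golgi Rab at 0.767 ± 0.19 FPKM in small and 1.30 ± 0.37 in large islets, -0.37 ± 0.10 (adjusted p = 0.0144; -0.24 with an adjusted p of 0.0628 after quantile normalization). All 6 were lower in small islets in each of the 3 batches.

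The number of size calls differed between single batches. Over all batches, 8 genes were called lower with the median of ratios and 7 with quantile normalization (all genes: 8.33% and 8.87%). Batch 1 alone called 1 gene higher and 28 lower (all genes: 14.5% and 22.5%), whereas batches 2 and 3 alone called 0 of 52 Rab genes and 0 of 13402 genes in limma. At an unadjusted p under 0.05 batch 2 had 0 Rab genes higher and 6 lower, and batch 3 had 1 higher and 6 lower; over all 13402 genes the counts were 310 and 1186 in batch 2 and 152 and 404 in batch 3. In batch 1 the small libraries held 15.5 to 18.3 and the large ones 21.0 to 23.2 (units of 1000000 fragments), without overlap, and the part of depth in the Rab differences was not tested. Mesenchymal markers were lower in small islets for 7 of 10 genes, macrophage markers for 4 of 8, with sums of 43.6 to 69.6 FPKM in small and 49.4 to 93.1 in large islets, and Schwann cell markers for 4 of 5 (all genes: 12.7%). Alpha cell markers in batch 1 summed to 5611 to 14527 FPKM in small islets (median 6799) and 11268 to 16898 in large islets (median 14040). Their medians in small and large islets were 17957 and 19158 FPKM in batch 2, and 17534 and 19528 FPKM in batch 3. The part of these cell types in the Rab differences was not tested.

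**Figure D5:**
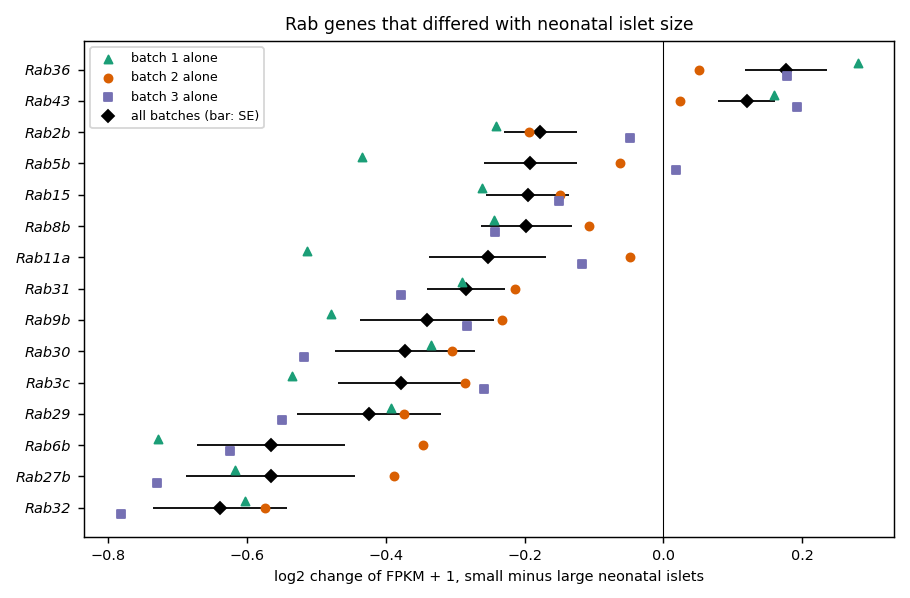
Log2 change of FPKM + 1 in neonatal small minus neonatal large islets for the 15 Rab genes called, from all batches (diamond, bar for the standard error) and within each batch. Rab32, Rab27b, Rab6b and Rab29 are below 0 in all 3 batches, whereas Rab5b is 0.02 in batch 3.

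Genes that act on secretory Rabs were counted beside them. Of 11 listed effectors and partners of Rab3 and Rab27 tested, 4 were higher and 3 lower in adults (all genes: 21.1% and 46.8%), with a median change of 0.28 relative to all genes and 0.17 and 0.61 within batches 2 and 3. Mlph (melanophilin, which links Rab27a to myosin Va) ran from 3.22 to 8.55 FPKM in adult with a median of 4.36, from 0.600 to 1.30 with a median of 0.854 in neonatal small and from 0.742 to 1.82 with a median of 1.16 in neonatal large islets, without overlap (1.58 ± 0.12, adjusted p = 4.5e-12). Exph5, a Rab27 effector, averaged 24.1 ± 2.0 FPKM in adult, 15.4 ± 1.8 in neonatal small and 13.6 ± 2.4 in neonatal large islets, without overlap (0.71 ± 0.09, adjusted p = 1.0e-07), and Dmxl2, a partner of Rab3 regulators on vesicles, 21.5 ± 4.5, 15.9 ± 2.6 and 14.5 ± 2.6 FPKM (0.53 ± 0.12, adjusted p = 3.6e-04). The 3 lower ones, Rph3al (Noc2, an effector needed for hormone release in mice), Myrip and Sytl3, had changes of -0.25, -0.29 and -0.24, and none of these passed in that direction after either rescaling.

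Of the 8 genes listed as regulators or partners of Rab3 and Rab27, 2 were higher and 4 lower in adults, against the same 21.1% and 46.8% of all genes. The 2 subunits of the Rab3 GTPase-activating complex rose together: Rab3gap1 averaged 35.6 ± 2.0 FPKM in adult, 21.9 ± 2.8 in neonatal small and 22 ± 3.2 in neonatal large islets (0.62 ± 0.08, adjusted p = 7.2e-08), and Rab3gap2 33.8 ± 2.4, 24.8 ± 3.8 and 21.7 ± 3.1 FPKM (0.61 ± 0.08, adjusted p = 1.5e-07), both without overlap. The exchange factor Rab3il1 fell, at 0.777 ± 0.43, 2.45 ± 0.52 and 3.13 ± 0.59 FPKM, without overlap (-1.06 ± 0.08, adjusted p = 1.9e-11), as did Tbc1d10b (-0.46 ± 0.07, adjusted p = 2.0e-06). In the shared prenylation and recycling machinery 2 of 8 genes were higher and 4 lower (all genes: 21.1% and 46.8%): the Rab escort protein gene Chm rose by 0.32 ± 0.09 (adjusted p = 3.6e-03) and its relative Chml fell to 2.48 ± 0.45 FPKM in adult islets, against 5.42 ± 0.98 in neonatal small and 5.31 ± 0.69 in neonatal large islets (-0.90 ± 0.09, adjusted p = 2.9e-09). Rabggta, Rabif and Rabggtb moved by -0.26, -0.29 and 0.23.

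For the other Rabs, 9 of 26 exchange factors were higher in adults and 8 lower, 15 of 34 TBC-domain GTPase activators higher and 7 lower, and 11 of 27 endosomal and Golgi effectors higher and 10 lower (all genes: 21.1% and 46.8%); median changes relative to all genes were 0.17, 0.25 and 0.27. Dennd4a, an exchange factor for Rab10, rose to 12.2 ± 3.2 FPKM in adult islets, against 6.20 ± 1.2 in neonatal small and 5.69 ± 1.1 in neonatal large islets (0.99 ± 0.08, adjusted p = 8.0e-11). Rin3, an exchange factor of the Rab5 subfamily to which Rab31 belongs, fell to 1.09 ± 0.21 FPKM, against 4.55 ± 1.2 and 4.62 ± 0.92 (-1.22 ± 0.09, adjusted p = 1.6e-12), and Dennd2a, for Rab9, to 2.88 ± 0.73 FPKM, against 9.23 ± 1.6 and 9.07 ± 1.5 (-1.26 ± 0.09, adjusted p = 5.1e-12). Among activators of GTP hydrolysis, Tbc1d2b fell to 3.02 ± 0.80 FPKM, against 9.16 ± 0.64 and 9.84 ± 0.83 (-1.38 ± 0.07, adjusted p = 2.7e-15), while Tbc1d8b and Tbc1d24 rose by 0.87 ± 0.10 and 0.82 ± 0.09, all 3 without overlap. Among effectors, the Golgi tether Uso1 (p115, recruited by Rab1) averaged 78.9 ± 6.4 FPKM in adult, 52.4 ± 9.1 in neonatal small and 50.8 ± 10 in neonatal large islets (0.54 ± 0.09, adjusted p = 1.9e-05), and Micall2, a partner of Rab13 at cell junctions, 0.911 ± 0.21, 2.89 ± 0.76 and 2.79 ± 0.48 FPKM (-0.87 ± 0.09, adjusted p = 2.0e-09), both without overlap.

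The authors' deposited table of their own comparison, whose log2 fold change is neonatal over adult, has 20 Rab genes with an FDR under 0.05 that are higher in adults, 11 that are lower and 22 that do not pass. The same counts over all genes of the authors' comparison were not made. The balance of 20 and 11 is therefore not shown to be particular to Rab genes. Of the 52 genes tested here, the change has the same direction in the authors' deposited table for 37 and the opposite one for 15, among them Rab4b, Rab5b and Rab8a, which were called lower in adults here. These 3 do not pass in the authors' comparison (FDR 0.881, 0.851 and 0.625). Of the secretory genes called lower here, Rab27b passes there (FDR 6.92e-04). Rab3b, Rab3d and Rab37 do not (FDR 0.458, 0.198 and 0.877). In the authors' deposited table Rab1a has -0.40 and Rab1b 0.36, and its marks name 3 Rab genes higher in neonates and 1 higher in adults.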

How the data were processed

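Islet RNA-seq values were deposited by the authors as FPKM per gene and library. Per the submitters' processing notes, STAR 2.6a, HTSeq 0.11.1, edgeR and the mm10 genome were used, with no strand setting given. The authors' deposited table of age results holds log2 fold changes, an F score and p-values. Its log2 fold change runs neonatal over adult.

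FPKM values were converted to log2(FPKM + 1), and genes with at least 1 FPKM in at least 6 libraries were tested with limma 3.58.1 (R 4.3.3; group and batch, trend and robust options, Benjamini-Hochberg at 0.05). Whole fragment counts could be recovered for 100% of values (within 0.03 of a whole number), giving totals of 15.5 to 32.0 in units of 1000000 fragments per library; they were used for depth only. Paralog ratios used an exact permutation within batches (scipy 1.17.1), a test chosen after the values were seen. Other alternatives were rescaling, quantile normalization, single batches, pseudocount 0.1, no low-value filter, no batch term and each library left out. Promoter windows came from RefSeq and positions from GENCODE, both for GRCm38. The procedure was tested on simulated data.

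Members, classes and gene lists were chosen with earlier results of these data known. Named genes were every secretory Rab, the 8 largest rises and 8 largest falls with age among called members of one direction in batches 2 and 3, the 6 largest called size changes, 6 members by smallest p for the difference between batches, the 5 highest by mean level and, for each pathway list, up to 3 called genes in each direction, of which some are left unprinted. Genes outside this rule, such as Rab4a, Rab4b, Rab5a, Rab20, Rab39 and Rab43, were named for a count, a paralog pair, an overlap or a difference between batches after their values were seen.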

Additional observations from a re-analysis of the deposited data

Results flagged for a closer look

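In 4 cases a single library stood far from the rest of its group, among 106 groups of genes and libraries examined; chance flags about 1 in 20, and the group of large islets was not examined because it holds more than 10 libraries. Rab1b had 50.0 FPKM in adult replicate 5, with the nearest adult library at 43.3 FPKM. Rab22a had 32.8 FPKM in adult replicate 6, with the nearest at 36.2 FPKM. Both Rab3c, at 3.27 FPKM, and Rab6b, at 14.5 FPKM, were high in small replicate 7, where the nearest small libraries had 2.22 and 9.63 FPKM.

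The age change of 20 genes differed between the batches (batch 3 minus batch 2, log2, limma interaction). It was higher in batch 3 for Rab9b (0.87), Rab6b (0.80), Rab19 (0.79), Rab23 (0.62), Rab3c (0.51), Rab3a (0.48), Rab37 (0.41), Rab5b (0.38), Rab36 (0.30), Rab14 (0.30), Rab2a (0.29) and Rab18 (0.27). It was lower for Rab20 (-1.08), Rab40c (-0.86), Rab5a (-0.54), Rab35 (-0.53), Rab3b (-0.48), Rab33b (-0.35), Rab4b (-0.34) and Rab4a (-0.30).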

How the results depend on the processing

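Counts of Rab genes called moved most with the scaling and with single batches. Shares over all genes were not counted for adult against small or large islets alone under a rescaling. They were not counted either for any adult comparison in batch 3 alone or without a batch term. Nor were they counted with a library left out or with the replicate block described below. Counts without such a share are not shown to be particular to Rab genes. For adult against all neonatal islets, median-of-ratios rescaling gave 21 higher and 12 lower, quantile normalization 22 and 12, and batch 3 alone 6 and 13. Against small islets, median-of-ratios rescaling gave 20 and 11, quantile normalization 22 and 12 and batch 3 alone 6 higher. Against large islets, they gave 18 and 12, 16 and 14, and 5 and 15 (batch 3), and no batch term gave 16 lower. For small against large islets, median-of-ratios rescaling gave 8 lower and quantile normalization 7. No batch term gave 0 higher and 7 lower in limma (all genes: 566 of 13402 in either direction). At an unadjusted p under 0.05 it gave 2 and 14, against 905 and 2395 of all 13402 genes. Batch 1 alone gave 1 and 28, and batches 2 and 3 alone 0 and 0, with the unadjusted counts given above. With any library left out, the counts ran from 8 to 11 higher and 20 to 24 lower for adult against all neonatal, 11 to 14 and 15 to 20 against small, 8 to 9 and 24 to 27 against large, 0 to 2 and 8 to 16 for small against large, and 7 to 13 and 7 to 12 for the difference between batches. Among the genes chosen by the naming rule, signs reversed for Rab3c (0.27), Rab32 (0.13), Rab30 (0.26) and Rab9b (0.34) after quantile normalization, for Rab37 (0.0024), Rab9b (0.52) and Rab5b (0.022) in batch 3, for Rab19 in batch 2 (-0.21) and for Rab2a after median-of-ratios rescaling (0.19); the cause was not tested. Outside that rule, Rab8a (0.01 with median of ratios), Rab40b (0.20 with quantile normalization) and Rab20 (-0.16 in batch 3) also turned. Same-numbered small and large libraries were not treated as pairs, since only 4 of 7 correlated over 0.1 (range -0.10 to 0.62), though 5 of 7 small libraries correlated best with their own number among the large libraries of their batch, a hint from the data and not the design; with the replicate block 1 gene was higher and 13 lower in small islets. A count test on fragments recovered from the FPKM, planned as an alternative, is not reported, since the deposited values are FPKM. Precision is limited for genes below 1 FPKM, such as Rab27b in adult islets.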
